A study of Mus musculus with 6 samples.

Results

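The 10 genes that carry out V(D)J recombination and classical non-homologous end joining were followed in CD4-CD8- double negative (DN) thymocytes, the immature T cell precursors that assemble the Tcrb, Tcrg and Tcrd genes. They were Rag1, Rag2, Dntt, Xrcc5, Xrcc6, Prkdc, Dclre1c, Lig4, Xrcc4 and Nhej1, chosen by name among the 41457 genes of the expression tables, and all 10 passed the filter on low counts. The Nc1Bio mice (labelled NFATc1 overexpression) carried 1 copy of a bacterial artificial chromosome with the whole Nfatc1 locus, in which the short isoform NFATc1/A bears a biotin tag at its C terminus, together with the biotin ligase BirA expressed from ROSA26. The BirA mice, labelled WT, carried the ligase alone, so that neither group was free of it. Mice of both groups were on a C57/B6 background, matched for sex and age at 4 to 6 weeks. The extra Nfatc1 copy came with the sequences of its own locus and was not targeted to thymocytes, and nothing in the labels tells whether separate animals gave the 3 libraries of a group, so the spread behind each p-value may be technical. DN cells were enriched by magnetic depletion with anti-CD4 and anti-CD8 beads, without sorting of the DN1 to DN4 stages, and poly(A) RNA was sequenced. The cells of both groups were freshly isolated, and no stimulation of them is described.

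In V(D)J recombination, RAG1 and RAG2 together cut the DNA beside V, D and J segments and leave hairpin-sealed coding ends. KU80 and KU70, the products of Xrcc5 and Xrcc6, hold the broken ends and recruit the kinase DNA-PKcs (Prkdc), which activates the nuclease Artemis (Dclre1c) to open the hairpins. TdT (Dntt) adds nucleotides that no template encodes, and XRCC4, DNA ligase IV (Lig4) and XLF (Nhej1) seal the joint. RAG1, RAG2 and TdT are made in developing lymphocytes, whereas the joining factors repair breaks in most cell types.

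None of the 10 genes passed the test between Nc1Bio and BirA thymocytes, in either counting column. Counts were of 2 kinds, which the tables name unique gene reads and total gene reads; the rule that separates them is not given. By edgeR's quasi-likelihood test at an adjusted p of 0.05, 0 of 10 genes were called in each, against 0.00818% of the 12224 genes tested called higher in unique reads (Nfatc1 itself) and 0.00764% of 13095 in total reads. DESeq2 called 0 of the 10 as well, with 0.458% of all genes called higher in each column, and 2.27% lower in unique and 2.21% in total reads. At an unadjusted edgeR p under 0.05 stood Dntt and Xrcc5 in unique reads and, in addition, Rag2 in total reads, all with higher means in Nc1Bio, where 4.31% of all genes in unique reads and 4.15% in total reads were higher at that level. None of the 10 was lower at that level, against 7.66% of all genes in unique and 7.32% in total reads. DESeq2 gave the same 2 genes in unique and the same 3 in total reads at an unadjusted p under 0.05, all higher, where 4.35% of all genes in unique and 4.39% in total reads were higher and 8.13% and 8.12% lower. In bulk RNA, fewer cells of a type and less RNA per cell cannot be told apart.

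Libraries held 11845952 to 15393763 unique gene reads, which were 64.1% to 76.0% of total gene reads. Nfatc1, the gene added, had a mean level, in CPM (reads per 1000000 reads of the library), of 573.4 ± 23.2 in the Nc1Bio libraries and 125.9 ± 27.9 in the BirA libraries (unique reads, SD over 3 libraries), with no overlap. Genes of T cells and of the depleted antigens were read beside the DN label. Cd3e had 233 to 276 CPM in Nc1Bio and 218 to 240 CPM in BirA, and Thy1 1608 to 2054 and 1629 to 1796 CPM. Cd4 had 0.834 to 5.40 CPM in Nc1Bio and 2.57 to 6.85 CPM in BirA. For CD8, the other antigen depleted, Cd8a had 4.25 to 12.1 CPM in Nc1Bio and 5.21 to 14.0 CPM in BirA. Cd8b1 had 16.0 to 24.1 CPM in Nc1Bio and 14.5 to 33.7 CPM in BirA. All 10 listed genes of the later double positive (DP) stage together summed to 774.7 to 828.8 CPM in Nc1Bio and 702.9 to 835.2 CPM in BirA. Arpp21, one of them, had 208 to 269 CPM in Nc1Bio and 184 to 234 CPM in BirA. The low Cd4 and Cd8a values thus describe the depletion and do not settle the stage of the cells. Red cell transcripts varied widely between libraries of both groups. The 6 erythroid markers summed to 14.9%, 6.73% and 26.9% of total gene reads in Nc1Bio replicates 1 to 3 and to 20.1%, 11.7% and 7.57% in BirA. The CPM given here are scaled by TMM, which lowers the weight of such abundant transcripts in the library size.

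The promoters of the 3 lymphoid genes are shown because Rag1 and Rag2 lie side by side, are transcribed towards each other and had their highest value in the same library. Each sequence is the 250 bases before the RefSeq start on the strand of the gene (build GRCm38.p6), at chr2:101649533-101649782 on the minus strand for Rag1, chr2:101624462-101624711 on the plus strand for Rag2 and chr19:41029025-41029274 on the plus strand for Dntt. Capitals mark the E-box letters CANNTG, the motif of E proteins such as E2A:
Rag1: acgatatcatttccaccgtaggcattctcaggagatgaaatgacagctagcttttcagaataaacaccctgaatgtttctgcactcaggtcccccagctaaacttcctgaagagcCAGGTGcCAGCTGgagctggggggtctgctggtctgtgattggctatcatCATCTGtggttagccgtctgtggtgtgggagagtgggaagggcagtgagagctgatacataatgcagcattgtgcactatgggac
Rag2: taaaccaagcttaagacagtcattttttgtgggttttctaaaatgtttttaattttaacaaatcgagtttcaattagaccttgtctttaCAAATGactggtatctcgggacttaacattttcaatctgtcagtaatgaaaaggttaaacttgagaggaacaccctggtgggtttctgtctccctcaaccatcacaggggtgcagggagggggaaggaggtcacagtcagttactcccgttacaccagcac
Dntt: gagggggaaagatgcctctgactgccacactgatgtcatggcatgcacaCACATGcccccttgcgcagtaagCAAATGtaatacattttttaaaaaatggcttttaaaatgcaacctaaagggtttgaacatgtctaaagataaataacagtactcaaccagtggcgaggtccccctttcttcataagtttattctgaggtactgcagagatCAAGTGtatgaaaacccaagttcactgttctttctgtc
The letters CANNTG, which read the same on both strands, stood 3 times before Rag1, 1 time before Rag2 and 3 times before Dntt. They are common: 66.2% of 32841 promoter windows of this length hold them. The letters GGAAA, the core of NFAT sites, searched on both strands, stood 1 time before Rag1 and 1 time before Dntt and were absent from the Rag2 window, where 55.6% of all windows hold them. No base was shared between matches of the 2 motifs. These matches describe the letters of the windows and say nothing of binding. Of the 10 genes, 9 had an entry among the RefSeq promoters, Prkdc being the one without.

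Rag1 and Rag2 had to be read from total gene reads. Rag1 (chromosome 2, bases 101638282 to 101649501, minus strand, GRCm38) and Rag2 (bases 101624718 to 101632529, plus strand) both lie inside the span of B230118H07Rik, a protein-coding gene annotated from base 101560781 to 101649532. Of the 6969 to 18305 total reads of Rag1 per library, 29 to 123 were counted as unique, a share of 0.416% to 0.737%. For Rag2, 25 to 59 of 498 to 1064 reads were unique, a share of 4.28% to 6.69%. In all 6 libraries the unique reads of both genes equalled their unique exon-exon junction reads in number. B230118H07Rik itself had 163 to 310 total reads, far fewer than Rag1, so the reads of Rag1 outside the unique column do not appear in its total. The unique column therefore measured a small part of Rag1 and Rag2 RNA.

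**Figure D1:**
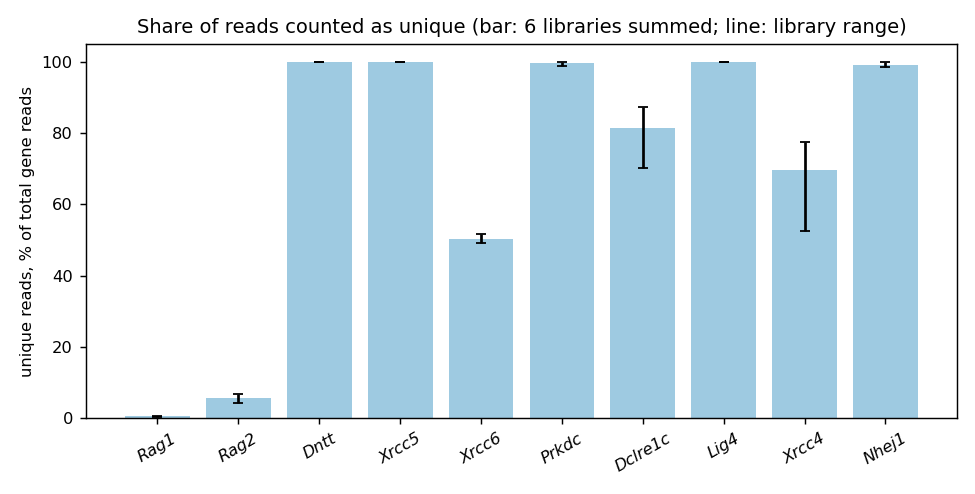
Unique gene reads as a percentage of total gene reads for each gene; bars give the 6 libraries summed and lines the range over libraries. Rag1 and Rag2 stand below 7%, Xrcc6 between 49.0% and 51.6%, and Dntt, Xrcc5, Prkdc, Lig4 and Nhej1 above 98%.

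Rag1, the catalytic subunit of the recombinase, had 412.5, 992.1 and 565.5 CPM of total reads in Nc1Bio, against 474.6, 499.0 and 362.2 CPM in BirA. Nc1Bio replicate 2 stood above every other library, and Nc1Bio replicate 1 lay inside the BirA range. The log2 fold change was 0.56 ± 0.30 (SE, adjusted p = 0.513, edgeR). The mean of the other Nc1Bio libraries was 1.10 times the BirA mean, and without Nc1Bio replicate 2 the log2 fold change was 0.14. Nc1Bio replicate 2 alone stood at 2.03 times the mean of the other Nc1Bio libraries. In it erythroid markers took the lowest share of reads, 6.73%, while BirA replicate 3, with 7.57%, had the lowest Rag1. The part of red cell content in the Rag1 values was not tested.

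Rag2, the subunit that completes the recombinase and reads histone marks, had 29.5, 57.7 and 51.6 CPM of total reads in Nc1Bio, against 34.2, 28.7 and 31.2 CPM in BirA. Nc1Bio replicates 2 and 3 lay above all BirA libraries and Nc1Bio replicate 1 lay within them. The log2 fold change was 0.56 ± 0.23 (SE, unadjusted p = 0.0448, adjusted p = 0.424, edgeR), and 0.37 without Nc1Bio replicate 2. In unique reads, with at most 123 reads of Rag1 and 59 of Rag2 per library, the log2 fold changes were 0.50 ± 0.53 for Rag1 and 0.53 ± 0.44 for Rag2. The Rag1 value in unique reads turned to -0.20 without Nc1Bio replicate 2. Junction reads were not a separate measure, because the unique reads of both genes equalled their unique exon-exon reads in number. In total exon-exon reads, not scaled for depth, Rag1 had 34, 132 and 72 in Nc1Bio and 73, 65 and 38 in BirA. Rag2 had 25, 59 and 58 against 42, 42 and 27.

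Dntt, which encodes TdT (chromosome 19, bases 41029275 to 41059523, plus strand), was the most abundant of the 10 genes and nearly all of its reads were unique. It had 2084, 1785 and 1635 CPM of total reads in Nc1Bio, against 1377, 1418 and 1573 CPM in BirA. All 3 Nc1Bio libraries lay above all 3 BirA libraries, although Nc1Bio replicate 3 exceeded BirA replicate 3 by little. The log2 fold change was 0.33 ± 0.12 (SE, unadjusted p = 0.0232, adjusted p = 0.367, edgeR). DESeq2 gave the smallest adjusted p of any of the 10 genes under any alternative, 0.0697 for Dntt in total reads. Counting error was at most 0.611% of a library's Dntt count, well under the spread between libraries. Rag1, Rag2 and Dntt thus all had positive fold changes, and none was called.

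**Figure D2:**
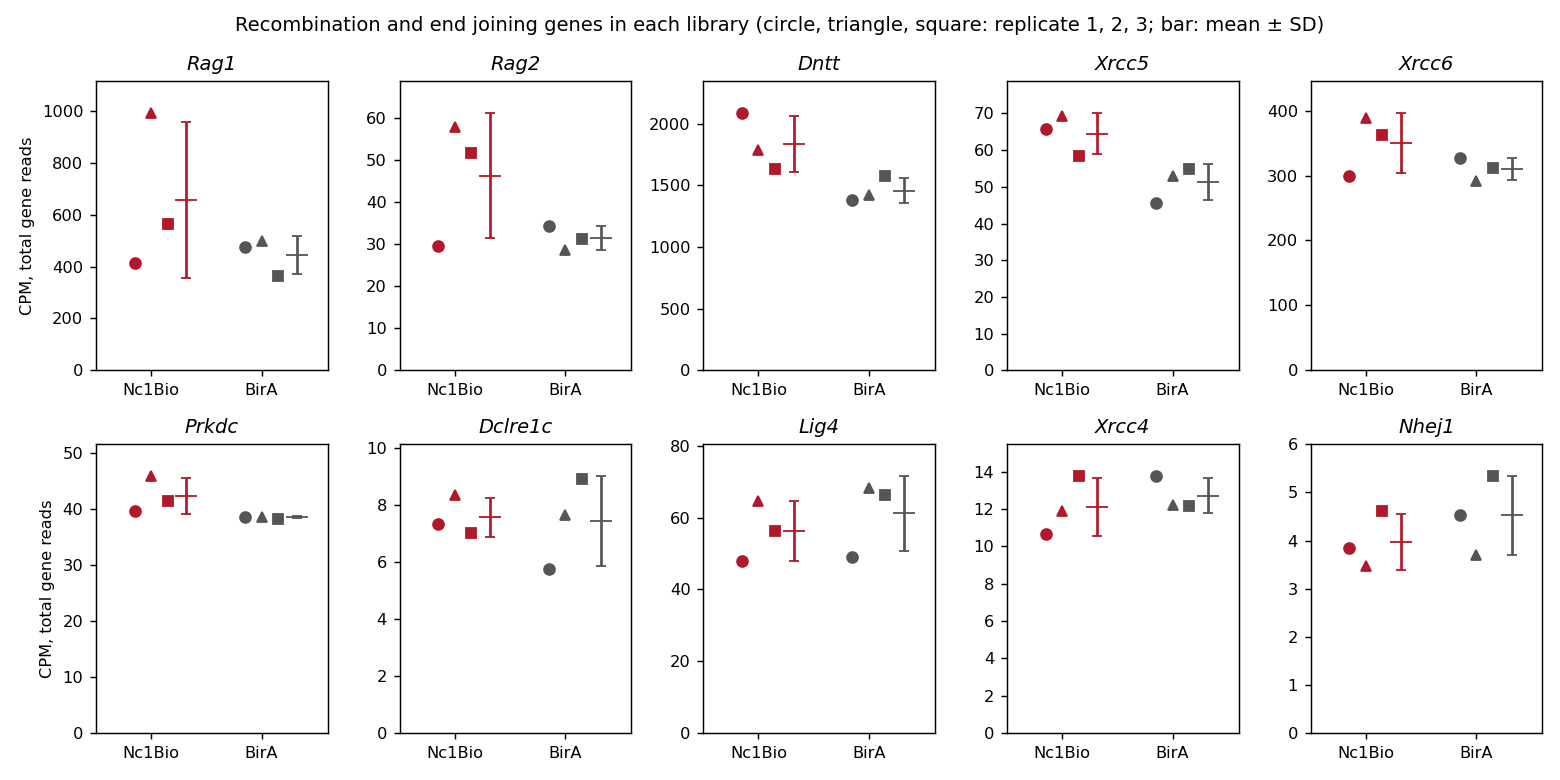
TMM-scaled CPM of total gene reads for the 10 genes in each library, Nc1Bio left and BirA right; symbols mark replicates 1 to 3 and bars give the mean ± SD of 3 libraries. Rag1 is highest in Nc1Bio replicate 2 (992.1 CPM), and the Nc1Bio libraries lie wholly above the BirA libraries in Dntt, Xrcc5 and Prkdc.

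Xrcc5 (chromosome 1, bases 72307421 to 72394952, plus strand) had, among the genes that hold and process the ends, the largest fold change. It had 65.8, 69.3 and 58.4 CPM of total reads in Nc1Bio, against 45.7, 53.0 and 55.0 CPM in BirA, with no overlap. The log2 fold change was 0.33 ± 0.11 (SE, unadjusted p = 0.0175, adjusted p = 0.345, edgeR), and it stayed between 0.26 and 0.39 when any 1 library was left out. Xrcc6, whose product pairs with that of Xrcc5 in the KU dimer, had 299.0, 388.4 and 362.8 CPM in Nc1Bio, against 327.0, 291.9 and 311.3 CPM in BirA. Its groups overlapped, and its log2 fold change was 0.18 ± 0.12. Xrcc6 (chromosome 15, bases 81987835 to 82040085, plus strand) contains the whole of Desi1 on the opposite strand. Only 49.0% to 51.6% of Xrcc6 reads were unique, and Desi1 had 5489 to 6414 total but 730 to 829 unique reads. Since the use of strand in the counting is not stated, reads of the pair cannot be told apart here.

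Prkdc, which encodes the DNA-PK catalytic subunit (chromosome 16, bases 15637866 to 15842235, plus strand), had 39.5, 45.9 and 41.4 CPM of total reads in Nc1Bio, against 38.6, 38.6 and 38.2 CPM in BirA. All Nc1Bio libraries lay above the BirA libraries, by a log2 fold change of 0.14 ± 0.10 (adjusted p = 0.614, edgeR). The BirA values lay closer together (SD 0.192 CPM) than the counting error of 3.44% to 3.87% per library would give on average, so their spread understates the error. Dclre1c, the Artemis gene (chromosome 2, bases 3424131 to 3464130, plus strand), was the lowest for its length. It had 7.34, 8.35 and 7.03 CPM in Nc1Bio and 5.76, 7.67 and 8.90 CPM in BirA, and its log2 fold change of 0.02 ± 0.24 in total reads was -0.05 ± 0.29 in unique reads. It rested on 112 to 180 total reads per library and shares its 3′ part with Suv39h2 on the other strand. For Dclre1c no direction can be given.

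The 3 ligation genes all had negative fold changes, none past the test. Lig4, the ligase itself (chromosome 8, bases 9969049 to 9977686, minus strand), had 47.9, 64.5 and 56.2 CPM of total reads in Nc1Bio, against 49.2, 68.1 and 66.3 CPM in BirA, a log2 fold change of -0.12 ± 0.16 (adjusted p = 0.795, edgeR). Replicate 1 was the lowest library of each group. Xrcc4, the partner that stabilises the ligase (chromosome 13, bases 89774027 to 90089608, minus strand), had 10.7, 11.9 and 13.8 CPM in Nc1Bio and 13.8, 12.2 and 12.2 CPM in BirA. Its log2 fold change was -0.07 ± 0.17 in total reads and -0.25 ± 0.20 in unique reads, which were 52.6% to 77.6% of its total. Its 5′ end overlaps Tmem167 on the other strand, of whose 1301 to 1744 total reads nearly all, 1293 to 1726, were unique. Nhej1 (chromosome 1, bases 74967139 to 75125200, minus strand) had 3.85, 3.47 and 4.61 CPM in Nc1Bio and 4.53, 3.70 and 5.34 CPM in BirA, a log2 fold change of -0.18 ± 0.30. With 64 to 108 reads per library its counting error was 9.62% to 12.5%, and its fold change was smaller than its SE. Whether depth was the limit was not tested.

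**Figure D3:**
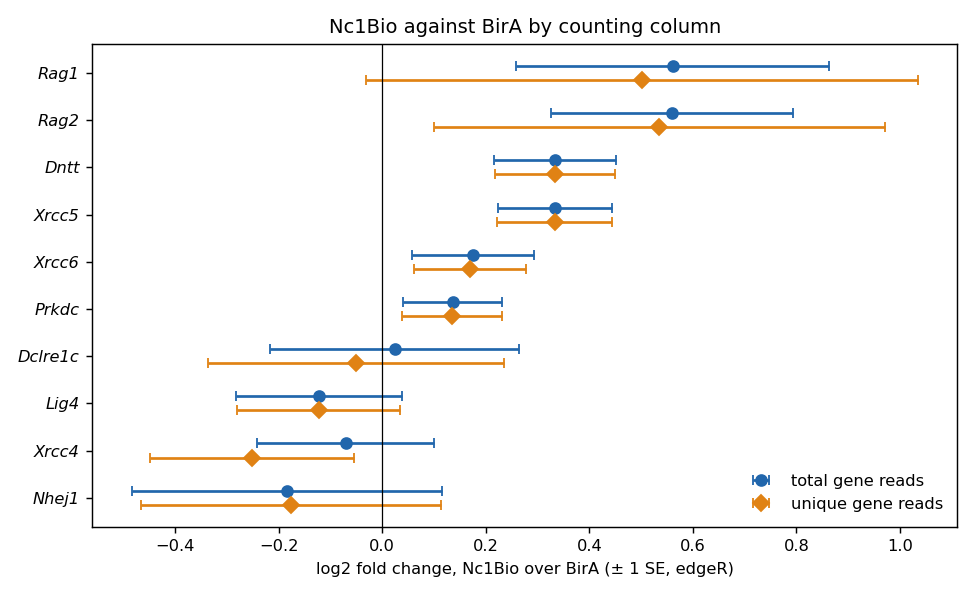
Log2 fold change of Nc1Bio over BirA with its SE from edgeR for the 10 genes, in total and in unique gene reads. Values run in total reads from -0.18 (Nhej1) to 0.56 (Rag1 and Rag2), and none of the 10 genes passed an adjusted p of 0.05.

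Grouped by role, all 3 lymphoid-specific genes had a log2 fold change above 0, as did 4 of 4 end recognition and processing genes in total reads (3 of 4 in unique reads) and 0 of 3 ligation genes. The median over the 10 genes was 0.16 in total reads and 0.15 in unique reads, against a median of -0.0027 over all genes tested in total reads and -0.0026 in unique reads. The groups did not overlap for 3 of the 10 genes, Dntt, Xrcc5 and Prkdc, all higher in Nc1Bio. Over all genes tested, 8.45% in unique reads and 8.42% in total reads stood apart in that direction. In the other direction it was 0 of the 10 genes, against 9.98% of all genes in either column.

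The positive median depended on 1 library in unique reads, and stayed positive without that library in total reads. Nc1Bio replicate 2 was the highest library for 5 of the 10 genes in each column (Rag1, Rag2, Xrcc5, Xrcc6 and Prkdc), while 13.9% of all genes tested in total reads had their highest value there. Without it the median over the 10 genes was -0.0017 in unique reads and 0.084 in total reads. Without it, total reads gave Dntt 0.35, Xrcc5 0.28, Xrcc6 0.095 and Prkdc 0.074 on the log2 scale. In total reads the fold changes of Dntt, Xrcc4 and Nhej1 did not depend on it in this way. Nc1Bio replicate 2 stood there at 0.960, 0.976 and 0.820 times the mean of the other Nc1Bio libraries for these genes. That value was 1.24 for Lig4 and 1.16 for Dclre1c in total reads, and 1.22 for Xrcc4 in unique reads.

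**Figure D4:**
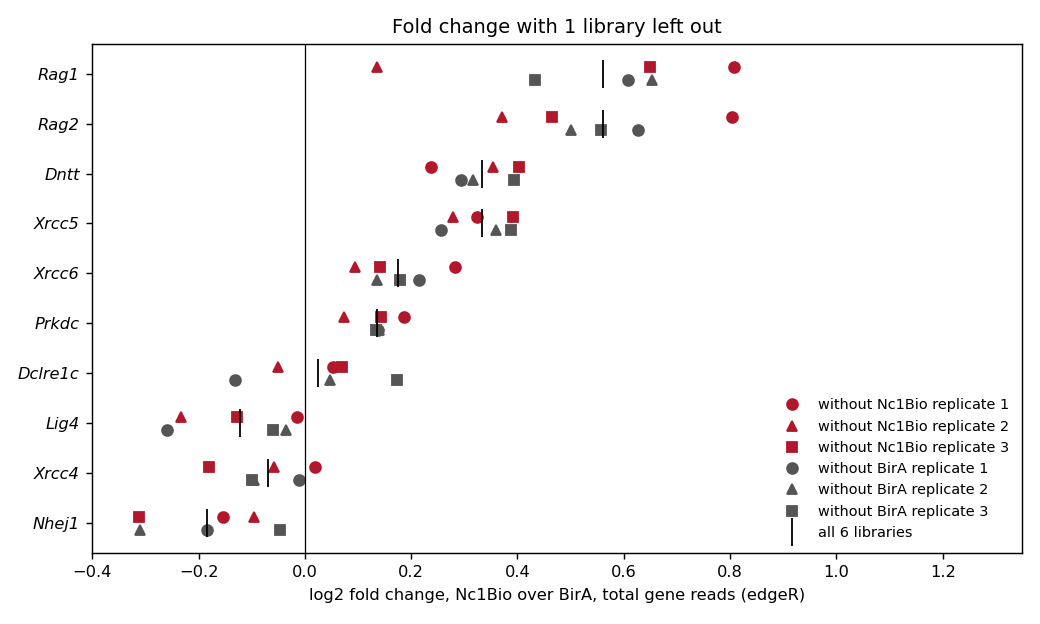
Log2 fold change of Nc1Bio over BirA in total gene reads (edgeR) when 1 of the 6 libraries is left out; the vertical tick is the value with all 6. Rag1 stands at 0.14 with Nc1Bio replicate 2 removed and at 0.81 with Nc1Bio replicate 1 removed, while Dntt stays between 0.24 and 0.40 and Xrcc5 between 0.26 and 0.39.

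Rag1 and Rag2 kept a similar ratio to each other in both genotypes. Total reads of Rag1 per read of Rag2 numbered 14.0, 17.2 and 11.0 in Nc1Bio replicates 1 to 3, against 13.9, 17.4 and 11.6 in BirA replicates 1 to 3. The mean log2 ratio was 3.79 ± 0.33 in the Nc1Bio libraries and 3.82 ± 0.29 in the BirA libraries (SD over 3 libraries). Nc1Bio minus BirA was -0.028 (p = 0.8 by an exact permutation test, both sides, with 0.1 as its lowest possible value). Libraries with the same replicate number had closer ratios than libraries of the same genotype. The labels do not say what the numbers share.

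**Figure D5:**
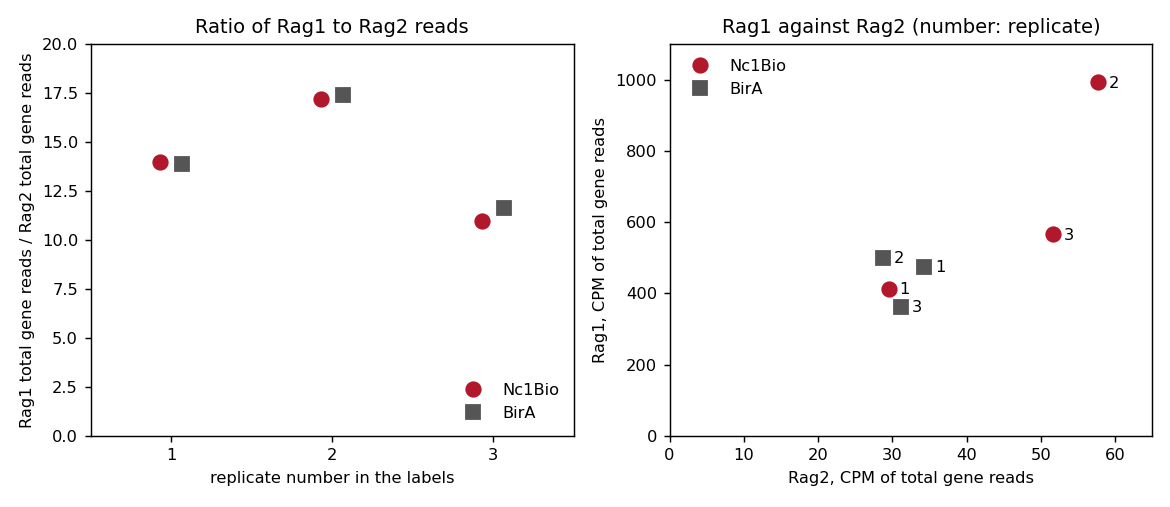
Left, Rag1 total gene reads per Rag2 total gene read by replicate number, Nc1Bio circles and BirA squares; right, TMM-scaled CPM of Rag1 against Rag2 in the 6 libraries. The ratio is near 14 in replicate 1, 17 in replicate 2 and 11 in replicate 3 of both groups, and Nc1Bio replicates 2 and 3 have the highest CPM of both genes.

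To set levels of different genes side by side, exon reads of all kinds were divided by exon length in kilobases. Dntt had 859.7 ± 107.3 CPM per kb in Nc1Bio and 682.3 ± 48.1 in BirA, its lowest library being 4.30 times the highest value of any other of the 10 genes (Rag1 in Nc1Bio replicate 2). Xrcc6 followed with 77.5 ± 10.2 in Nc1Bio and 68.6 ± 3.99 in BirA, and Rag1 with 99.3 ± 45.4 and 67.3 ± 11.1 CPM per kb. These ranges overlapped, so their order is not fixed. The Xrcc6 level may also hold reads of Desi1, from which its reads cannot be told apart here. Xrcc5 (25.0 ± 2.04 in Nc1Bio, 19.9 ± 1.89 in BirA) lay below Rag1 in all libraries. Lig4 (10.8 ± 1.58, 11.7 ± 2.03) and Rag2 (13.5 ± 4.34, 9.15 ± 0.819) overlapped next. Rag2 thus stood well below Rag1 per kilobase as well as per gene. Nhej1 (3.06 ± 0.607, 3.42 ± 0.949), Prkdc (3.11 ± 0.301, 2.78 ± 0.061) and Xrcc4 (2.43 ± 0.397, 2.56 ± 0.024) could not be ordered, and Dclre1c was lowest with 0.665 ± 0.055 in Nc1Bio and 0.571 ± 0.042 CPM per kb in BirA (SD, n = 3 each).

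Intron reads, which come from unspliced RNA or from other transcripts inside the span, were few for the abundant genes. They made up 0.254% to 0.311% of total Dntt reads over the 6 libraries and at most 0.123% of Rag1 reads. Dclre1c had the largest mean share in each group, with 18.5%, 18.8% and 17.2% in Nc1Bio and 15.2%, 29.2% and 36.7% in BirA. Single libraries differed: in BirA replicate 1 Nhej1 (30.7%) and Xrcc4 (20.9%) stood higher, as did Nhej1 (20.3%) in Nc1Bio replicate 2. With 3 libraries against 3, an exact permutation test of these shares cannot go below p = 0.1, so no difference between the groups could be called.

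None of the neighbours of the Rag genes on chromosome 2 passed the edgeR test. Traf6, a signalling adaptor gene, had 90.3, 93.1 and 89.1 CPM of unique reads in Nc1Bio and 90.5, 97.1 and 91.9 CPM in BirA, a log2 fold change of -0.04 ± 0.08. B230118H07Rik had 16.4, 21.8 and 13.6 CPM in Nc1Bio and 15.6, 12.7 and 11.1 CPM in BirA, a log2 fold change of 0.40 ± 0.23 (adjusted p = 0.535, edgeR), highest in Nc1Bio replicate 2 as Rag1 was. Prr5l had 2.17, 0.683 and 0 CPM in Nc1Bio and 14.4, 4.48 and 2.29 CPM in BirA, a log2 fold change of -2.89 ± 1.13 (adjusted p = 0.388, edgeR).

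Among regulators of Rag transcription, edgeR called 0 of 14 genes, with 8 above 0 and 6 below (median 0.07, unique reads). Foxo1, a transcription factor known to bind and activate the Rag locus in lymphocyte precursors, had 27.2, 25.0 and 29.4 CPM in Nc1Bio, against 61.6, 49.2 and 48.1 CPM in BirA. Every Nc1Bio library lay below every BirA library (log2 fold change -0.96 ± 0.14, adjusted p = 0.106 by edgeR and 2.46e-05 by DESeq2). The Rag values above therefore stood beside a lower Foxo1, called by DESeq2 and not by the main edgeR fit. In unique reads 4 of 17 alternatives called it, among them edgeR without a low-count filter and with unscaled library totals. Lef1, an HMG-box factor of early T cells, had 163.1, 144.7 and 164.9 CPM in Nc1Bio and 102.0, 121.1 and 126.9 CPM in BirA (0.43 ± 0.11, adjusted p = 0.243 by edgeR and 0.0270 by DESeq2). E2f1, a cell cycle factor, gave 0.40 ± 0.14 and Gata3 -0.41 ± 0.22, both short of either tool's threshold.

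The remaining repair lists held no gene called by edgeR or DESeq2. The further end joining factors had 6 of 10 genes above 0 (median 0.05, unique reads), with Tdp1, which clears topoisomerase remnants from DNA ends, at 85.5 ± 5.58 CPM in Nc1Bio and 70.9 ± 2.75 CPM in BirA (log2 fold change 0.27, adjusted p = 0.343, edgeR). The template-independent and gap-filling polymerases Polm and Poll, relatives of Dntt, gave 0.09 and 0.10. Genes for RAG cofactors and RAG turnover had 9 of 11 above 0 (median 0.13), among them Hmgb1 (0.20) and Hmgb2 (0.22), whose products bend DNA for the recombinase, and Skp2 (0.23) and Ccna2 (0.31), whose products take part in the destruction of RAG2 in S phase. Break sensing and signalling genes had 9 of 11 above 0 (median 0.09), alternative end joining genes 4 of 6 (median 0.08), and homologous recombination genes 8 of 8 (median 0.17), among them Rad54l (0.35).

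Markers of the cell cycle and of cell stages and types are given beside these values; edgeR called none of them. All 10 proliferation genes lay above 0 (median 0.24), with summed levels of 4112 to 4532 CPM in Nc1Bio and 3167 to 3896 CPM in BirA, and DESeq2 called Cdc20 (0.42) and Mcm5 (0.33). Of the pre-TCR and DN stage markers 8 of 12 lay above 0. The 4 below 0 were Cd44 (-0.82), Kit (-0.47), Cd28 (-0.34) and Cd3d (-0.12) in unique reads. Kit had 43.7, 37.1 and 21.6 CPM in Nc1Bio and 49.2, 44.4 and 48.4 CPM in BirA, with no overlap. Ptcra, the pre-TCR alpha chain of the DN3 stage, had 16.5, 34.3 and 17.9 CPM in Nc1Bio and 9.46, 9.73 and 10.7 CPM in BirA (log2 fold change 1.20, adjusted p = 0.222 by edgeR and 0.00869 by DESeq2), again highest in Nc1Bio replicate 2, and DESeq2 also called Notch3 (0.49) in unique reads (adjusted p = 0.0275), but not in total reads (adjusted p = 0.0637). Among DP stage markers 7 of 10 lay below 0.

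B cell precursors also express Rag1, Rag2 and Dntt. All 8 B lineage markers tested in unique reads lay below 0 (median -1.65). They summed to 57.7 to 90.0 CPM in Nc1Bio and 133.1 to 360.0 CPM in BirA. Cd79b and Ms4a1 in both columns and Pax5 in unique reads only were among those that DESeq2 called. Of the 10 listed, Vpreb1 and Igll1 are surrogate light chain genes, which mark pro-B and pre-B cells. Both were under the filter in unique reads, with 0 to 22 and 0 to 10 reads per library. In total reads Vpreb1 was tested, and its log2 fold change was -0.06, with a range of -1.39 to 0.60 over the alternatives. NK and innate markers lay below 0 in 6 of 6 tested (median -1.73), summing to 368.5 to 562.1 CPM in Nc1Bio and 766.2 to 976.3 CPM in BirA. Myeloid markers overlapped (446.7 to 3908 CPM in Nc1Bio, 392.8 to 5984 CPM in BirA), and the 8 epithelial and stromal markers summed to 115.5 to 145.2 CPM in Nc1Bio and 143.3 to 156.4 CPM in BirA. Among these Pecam1, an endothelial gene, had 89.6 to 103.7 CPM in Nc1Bio and 90.5 to 123.4 CPM in BirA, and Epcam 19.9 to 44.8 CPM in Nc1Bio and 26.2 to 37.3 CPM in BirA, while 3 epithelial genes were under the filter, Krt5 with 0 to 15 unique reads and Foxn1 and Psmb11 with 0 to 2 each. The part of these cells and of cycling in the fold changes of the 10 genes was not tested.

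Likeness of log2 CPM to Rag1 in total reads was ranked over the 6 libraries, with predicted gene models left out of the names. The closest were Alpk1 (Pearson r = 0.96), Pithd1 (0.96), Trim44 (0.96), Mtss1l (0.96) and Fkbp5 (0.96). Of all 13094 genes, predicted ones included, 7 lay over 0.95. Among the 10 genes, Prkdc (0.94), Rag2 (0.84) and Xrcc6 (0.82) ran closest to Rag1, and Nhej1 ran opposite (-0.64). For Rag2 in unique reads they were Ndufb3 (0.98), Suv39h1 (0.98), Tctn3 (0.97), Crbn (0.97) and Ston2 (0.96). With 6 points that share library and depth these values describe the libraries only.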

How the data were processed

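Poly(A) RNA of 3 Nc1Bio and 3 BirA DN thymocyte preparations was compared. The authors deposited 1 table per library of read counts on GRCm38, with unique and total columns for each gene as a whole, its exons, its exon junctions and its introns; RPKM and TPM columns beside them were not used. The methods name featureCounts, which writes a single count per gene, whereas the deposited columns split unique, total, exon, junction and intron reads; the program that wrote them, its strand setting and its rule for unique reads are not given in the sources used here. Counts are reads, not molecules, so counting errors cover sampling only.

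Unique gene reads and total gene reads were each fitted over all genes passing filterByExpr (12224 and 13095 of 41457) with edgeR 4.0.16 in R 4.3.3: TMM scaling, quasi-likelihood test in legacy mode, genotype as the single term, Benjamini-Hochberg adjustment, calls at 0.05. The SE is the fold change divided by the root of F. DESeq2 1.42.0 and limma-voom (limma 3.58.1) were alternatives, with other scaling, filters, left-out libraries, a replicate block and exon reads. Ratios and intron shares were compared by exact permutation. Steps were tested on simulated data.

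Named were the 10 genes, genes overlapping them, genes within 200 kb of Rag1 and Rag2, and Nfatc1. Up to 4 genes of each list by lowest unadjusted p were also named. So were the 5 genes most like Rag1 and Rag2, with predicted gene models left out. Other list genes named (Cd3e, Cd3d, Thy1, Cd44, Kit, Cd28, Cd4, Cd8b1, Polm, Poll, Pax5, Vpreb1, Igll1, Epcam, Krt5, Foxn1, Psmb11) were chosen after their values were seen. The 10 genes and the lists were chosen with earlier results of these data known. A few list genes that the rule names are not reported here. Promoters come from RefSeq (GRCm38.p6).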

Additional observations from a re-analysis of the deposited data

How the results depend on the processing

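None of the 10 genes was called under any of the 17 alternatives in either column. Genes called in the accompanying lists numbered 0 by edgeR, 5 without a low-count filter, 13 by DESeq2, 1 with unscaled library totals and 3 by DESeq2 without Nc1Bio replicate 2 (the last 2 settings were chosen after seeing the data). Unscaled totals moved the median of all genes to -0.071 in total reads. Over all genes, calls higher and lower were 1 and 0 by edgeR, 56 and 277 by DESeq2, 11 and 145 without a filter and 1 and 18 unscaled in unique reads. The Nfatc1 call in unique reads was lost without BirA replicate 2 and without each Nc1Bio replicate (adjusted p 0.0618 to 0.141, log2 fold change 2.16 to 2.22, edgeR). The median log2 fold change of the 10 genes in unique reads, 0.15, ran from -0.0017 (without Nc1Bio replicate 2) to 0.21 with 1 library left out, and was 0.0037 by DESeq2 without Nc1Bio replicate 2. Rag1 in unique reads turned to -0.20 by edgeR and -0.19 by DESeq2 without Nc1Bio replicate 2, and was at most 0.84 (without Nc1Bio replicate 1). Dclre1c in unique reads turned to 0.14 without BirA replicate 3, 0.072 without Nc1Bio replicate 3 and 0.17 in exon reads, and was -0.25 without BirA replicate 1. In total reads it turned to -0.13 without BirA replicate 1, -0.051 without Nc1Bio replicate 2, -0.079 without BirA replicate 1 and Nc1Bio replicate 3 together, -0.052 unscaled and -0.045 by DESeq2 without Nc1Bio replicate 2. Xrcc4 in total reads turned to 0.020 without Nc1Bio replicate 1 and was -0.18 without Nc1Bio replicate 3. The difference in the log2 ratio of Rag1 to Rag2 reads ran from -0.19 to 0.14 with 1 library left out, turning to 0.14 without Nc1Bio replicate 3 and 0.12 without BirA replicate 2. Nc1Bio replicate 3 had the lowest ratio of its group (11.0), and BirA replicate 2 the highest of its group (17.4). The cause of the sign changes given above was not tested. Same-numbered libraries did not deviate together throughout (r of deviations 0.33, 0.11 and -0.066 for replicates 1, 2 and 3 in unique reads), so the numbers were not taken as pairs; with a replicate block 0 of the 10 genes were called, and Rag1 in total reads gave 0.48 (adjusted p = 0.485, edgeR). Unique reads of Rag1, Rag2, Dclre1c, Xrcc4 and Nhej1 are few, which limits what their fold changes can show.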
